A study of Homo sapiens with 9 samples.

Results

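The genes described here are those whose level differed most among replicate cultures of human neural crest-like cells grown in the same medium. For each gene the SD of log2(FPKM + 1) was taken over the 3 libraries of a medium, where FPKM is a fragment count scaled to transcript length and library size, as deposited. The search covered genes at or above 5 FPKM in no fewer than 3 of the 9 libraries. Of 25593 loci listed, 9401 were kept, and 406 of these had an SD of 1 or more in at least 1 medium. Medium F had 184 such genes (1.96% of those kept), medium FSB had 31 (0.33%) and medium F_FSB had 279 (2.97%). The genes were chosen by this spread, so their SDs are given as a description and are not tested.

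All cultures were derived from the established embryonic stem cell line H9 by 6 days of differentiation with 10 µM SB431542, an inhibitor of the receptors for TGF-β, Activin and Nodal. Cells high in CD271 (the product of NGFR) and without CD73 (the product of NT5E) were then sorted, per the growth protocol. The cell type label names both proteins as positive, and which of these statements holds was not tested. Sorted cells were grown on fibronectin under 5% O2. Medium F contained 5 to 10 ng/ml FGF2, and medium FSB contained FGF2 with 3 to 5 µM SB431542. The F_FSB cultures spent 4 passages in FSB and then 3 in F, as a portion split from FSB cultures, while the other portion stayed in FSB. Cultures were harvested at passage 6 to 7, 3 per medium, all from 1 cell line. The design text calls them biological replicates, but the labels do not say whether they came from separate sorts or differentiations, so p-values measure only the spread between these samples.

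Neural crest cells are a migratory embryonic population that forms peripheral neurons, glia and melanocytes, and in the head also ectomesenchyme, the source of facial cartilage, bone, tendon and connective tissue. Transcription factors such as SOX9, TFAP2A, MSX1 and the DLX family mark stages and positions of this lineage, and cells leaving it take up matrix programmes that TGF-β signalling promotes. In bulk RNA a gene can vary because fewer cells express it or because each cell holds less of its RNA, and these cannot be told apart here. The crest factor TFAP2A and the ectomesenchymal genes TWIST1, PRRX1 and PDGFRA were present in every library. TWIST1 ranged from 20.9 to 99.5 FPKM and PRRX1 from 144 to 255 FPKM. The early crest factors SOX10 and FOXD3 were at or near 0, with a highest value of 1.69 FPKM for SOX10 in FSB replicate 3 and 0.025 FPKM for FOXD3.

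Certain libraries stood apart before any gene was considered. FSB replicates 1 and 2 were the closest pair: only 6 of the 9401 genes differed 2-fold or more between them on the log2(FPKM + 1) scale, against 145 and 163 for the pairs with FSB replicate 3. The pairs within F differed in 326 to 438 genes and those within F_FSB in 416 to 599. No gene had an equal nonzero value in FSB replicates 1 and 2, nor in any other pair within a medium, so their values are not a repeated set. Their Cufflinks intervals overlapped in 82.5% of genes, against 59.4% to 67.2% in the other pairs within a medium. These values cannot show whether the 2 libraries came from separately grown cultures, and they were kept as 2 samples, as labelled. FPKM sums over all loci ran from 361030 to 395600 in 8 libraries and reached 506150 in F_FSB replicate 2. In this library, many pseudogenes and other close copies of expressed genes were low, as described next.

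Of the 279 genes with an SD of 1 or more in F_FSB, 49 were pseudogenes by RefSeq type, against 153 of all 9401 genes kept. In 48 of these 49, replicate 2 was the library that stood apart, against 34.7% of all genes kept. No such group was seen in F or FSB, where pseudogenes made up 1 and 0 of the genes of high spread. ANXA2P1, a pseudogene of the calcium-dependent membrane protein gene ANXA2, had 97.2 and 78.7 FPKM in F_FSB replicates 1 and 3 and 0.51 FPKM in replicate 2. ANXA2P3 had 121 and 99.5 FPKM in replicates 1 and 3 and 0.67 FPKM in replicate 2. The other 6 libraries held 53.5 to 102 FPKM of ANXA2P1, so 1 library alone was low. ANXA2 itself had 554 and 531 FPKM in replicates 1 and 3 and 799 FPKM in replicate 2, the highest of the 9 libraries. The stretches below show how alike these loci are. They give bases 72 to 191 of the longest annotated ANXA2 coding sequence (chromosome 15, minus strand) and the aligned bases of ANXA2P1 (chr4:154229808-154229927, minus strand, GRCh37) and ANXA2P3 (chr10:66585316-66585435, plus strand, GRCh37), with capitals at bases that differ from ANXA2.
ANXA2: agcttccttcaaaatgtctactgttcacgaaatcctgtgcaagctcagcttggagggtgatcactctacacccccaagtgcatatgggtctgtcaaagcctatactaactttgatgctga
ANXA2P1: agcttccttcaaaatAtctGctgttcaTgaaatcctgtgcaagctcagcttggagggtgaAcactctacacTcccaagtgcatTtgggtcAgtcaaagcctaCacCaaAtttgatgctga
ANXA2P3: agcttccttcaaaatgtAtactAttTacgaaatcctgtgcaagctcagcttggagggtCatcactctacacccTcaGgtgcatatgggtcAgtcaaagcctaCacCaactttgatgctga
ANXA2P1 differed from ANXA2 at 10 of these 120 bases and ANXA2P3 at 9. Over 1009 and 1022 aligned coding bases, identity was 94.0% and 92.3%.

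The same held across short loci. Among 543 genes kept whose locus spans at most 3000 bases, 87 (16.0%) were copies, with at least 80% of the span matching a protein-coding transcript of another gene at 90% identity or more. Copies made up 37 of the 71 such loci with an SD of 1 or more in F_FSB and 50 of the 472 below 1. At an identity of 95% the counts were 15 of 71 and 31 of 472. The identity of 90% was chosen after the values were seen. In 34 of the 37 copies, which were chosen by their spread, F_FSB replicate 2 was the lowest of its medium, against 2614 of all 9401 genes. The parent of a copy is here the gene with the best-matching transcript, which need not be its source. RN7SK, a noncoding RNA gene, was for example matched to ZNF277. Values for 28 parent genes of the copies lowest there were at hand, and 24 of the parents were highest in replicate 2, against 3589 of all 9401 genes. The median of the 87 copies was 6.12 FPKM in F_FSB replicate 2 and 15.5 to 23.6 FPKM in the other 8 libraries. Some ribosomal protein genes went the other way. RPL21 had 19.1, 674 and 22.5 FPKM in F_FSB replicates 1 to 3, and RPS26 had 6.96, 180 and 7.56 FPKM (both chosen after their values were seen). How reads were placed in this library was not tested. Restricted to 8977 protein-coding genes, the counts with an SD of 1 or more were 178 in F, 27 in FSB and 198 in F_FSB.

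**Figure D1:**
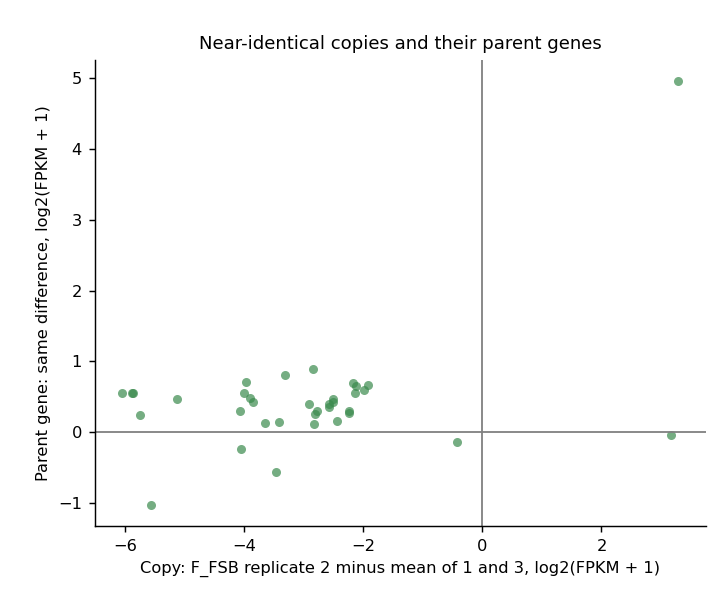
Copies with an SD of 1 or more in F_FSB, each plotted against its parent gene, meaning the gene with the best-matching transcript. Both axes give F_FSB replicate 2 minus the mean of replicates 1 and 3 in log2(FPKM + 1); most points lie left of 0 and above 0, since 34 of 37 copies were lowest and 24 of 28 parents highest in replicate 2.

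Over all genes, SDs among replicate cultures were lower in FSB than in F or F_FSB. The median SD was 0.14 in F, 0.11 in FSB and 0.16 in F_FSB. By pairs of libraries, the median absolute log2 difference was 0.101 for FSB replicates 1 and 2. It was 0.155 and 0.147 for the pairs with FSB replicate 3, against 0.154 to 0.171 within F and 0.166 to 0.202 within F_FSB. By this measure FSB replicate 3 was about as far from its replicates as F libraries were from each other. The SD was larger in F than in FSB in 59.0% of genes and larger in F_FSB than in FSB in 64.2%. These figures did not come only from genes with little expression in FSB: among 7857 genes whose mean was at least 5 FPKM in each medium, an SD of 1 or more was found in 82 for F, 21 for FSB and 169 for F_FSB. The deviation of a single library was summarised as the root mean square distance of its genes from the medium mean, on the log2 scale and corrected for the number of libraries. It was 0.36, 0.30 and 0.31 in F, 0.16, 0.17 and 0.26 in FSB, and 0.35, 0.44 and 0.39 in F_FSB. All 6 libraries of F and F_FSB lay above the 3 of FSB. The means were 0.32 ± 0.03 (SD, n = 3) in F, 0.20 ± 0.05 in FSB and 0.39 ± 0.05 in F_FSB. By a two-sided exact permutation test p was 0.1 for F against FSB and for F_FSB against FSB, the smallest value that 3 against 3 libraries allow, and 0.2 for F_FSB against F. Adjusted over the 3 comparisons these were 0.15, 0.15 and 0.2, so none passed 0.05. Libraries of 1 medium share their mean and are not independent in this test.

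**Figure D2:**
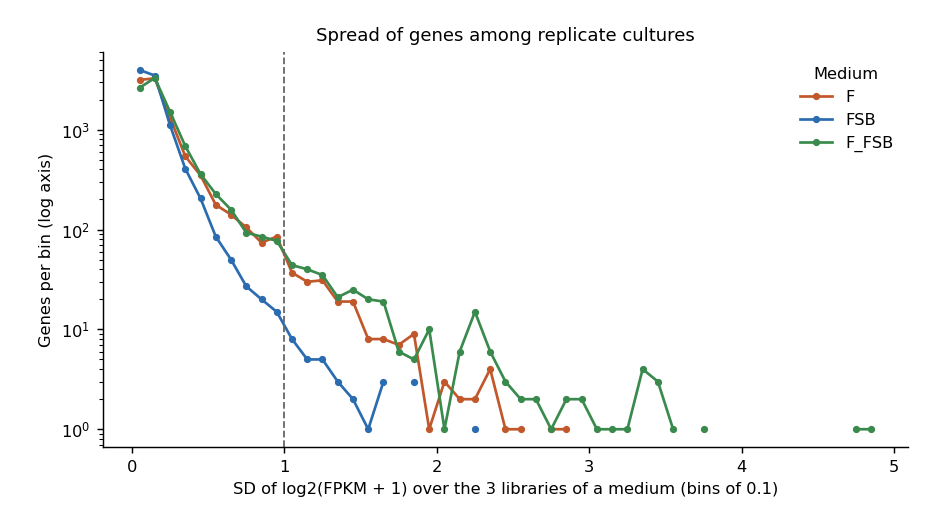
Number of genes (log axis) by SD of log2(FPKM + 1) over the 3 libraries of each medium, in bins of 0.1. Right of the dashed line at an SD of 1 lie 184 genes in F, 31 in FSB and 279 in F_FSB; the FSB curve falls fastest.

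For each gene the library across the wider of the gaps between the 3 sorted values was taken as the one that stood apart. Among the 184 genes of F it was replicate 1 in 108, of which 72 were high and 36 low there, replicate 2 in 32 and replicate 3 in 44. Among the 31 genes of FSB it was replicate 3 in 28, with 10 high and 18 low. Among the 279 genes of F_FSB it was replicate 2 in 132, replicate 3 in 101 and replicate 1 in 46. In protein-coding genes of F_FSB the order differed, with replicate 3 apart in 96, replicate 2 in 60 and replicate 1 in 42. Over all 9401 genes, replicate 1 of F stood apart in 34.1% and replicate 3 of FSB in 48.9%. The 95% intervals that Cufflinks gives for each FPKM measure quantification error within a library. The intervals of the highest and lowest library were separate in all 184, 31 and 279 genes, where they were separate in 54% of all genes kept in F, 48.4% in FSB and 57.1% in F_FSB. The choice of genes with a wide gap nearly fixes this count, so nothing is read from it.

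**Figure D3:**
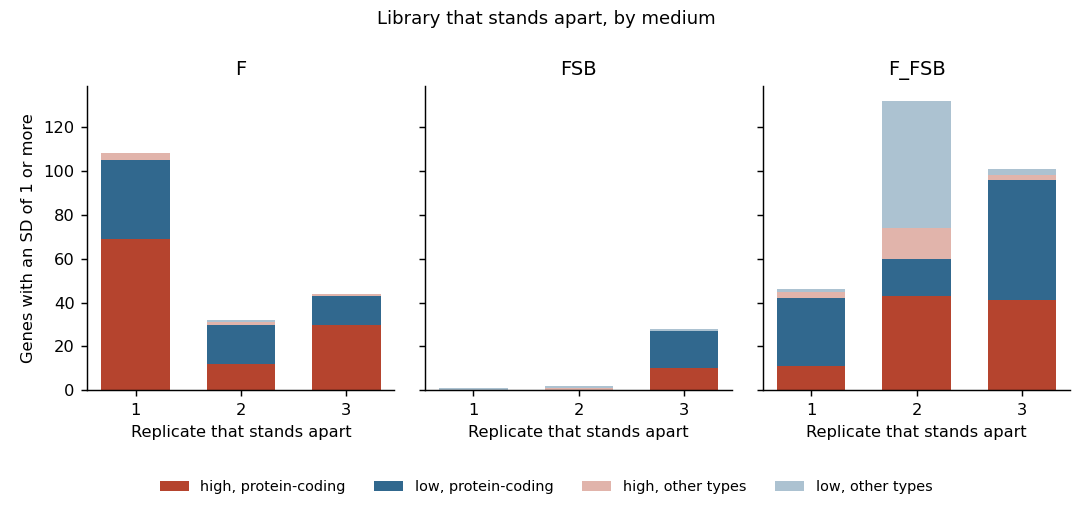
Bars count genes with an SD of 1 or more by the replicate that stood apart in each medium; red is high and blue is low there, and pale shades are genes that are not protein-coding. Replicate 1 leads in F with 108 genes, replicate 3 in FSB with 28, and the pale block of F_FSB replicate 2 holds the pseudogenes and other copies.

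The genes of widest spread in F did not share 1 pattern over the replicates. Without replicate 1, 134 genes had an SD of 1 or more in F, 67 of them among the 184. MGP (chr12:15034115-15038853), a matrix protein that inhibits calcification, had 5.77, 24.8 and 325 FPKM in F replicates 1 to 3. Its SD of 2.84 was the largest in F. ALDH1A3 (chr15:101420009-101456831), which makes retinoic acid, had 0.78, 7.68 and 75.4 FPKM, an SD of 2.72. The 3 libraries of both genes were stepwise apart, with no close pair. ALDH1A2, another retinoic acid synthase, had 8.94, 59.5 and 154 FPKM. PROM1, which encodes the membrane protein CD133, had 3.71, 16.8 and 154 FPKM. DLK1, an imprinted gene for a Notch-related surface protein of mesenchymal progenitors, had 21.1, 235 and 471 FPKM.

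NGFR (chr17:47572655-47592382), whose product CD271 was used for the sort, varied in F but little in FSB. It had 0.73, 41.3 and 18.0 FPKM in F replicates 1 to 3, 134, 124 and 104 FPKM in FSB, and 1.5, 5.92 and 7.26 FPKM in F_FSB. The FSB libraries lay above all others, and replicate 1 was the lowest in both F and F_FSB. NEFM, a neurofilament subunit of neurons, was likewise lowest in F replicate 1, with 0.30, 14.8 and 5.40 FPKM. It was the exception in its list. Of the 4 peripheral neuron genes kept, 3 were highest in F replicate 1, against 3459 of all 9401 genes. SOX9, the crest and cartilage factor in the series title, had 15.9, 23.2 and 58.3 FPKM in F, 43.7, 36.5 and 22.2 FPKM in FSB and 10.6, 22.7 and 25.1 FPKM in F_FSB. Its SDs of 0.93, 0.49 and 0.64 stayed under 1, and its 3 media overlapped. NT5E had SDs of 0.42, 0.79 and 0.36.

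Matrix and tendon genes of high spread came next. In the tendon and ligament list, 4 of the 6 genes kept were lowest in F replicate 1 and 4 were highest in F replicate 3. Over all 9401 genes these counts were 2901 and 3238. TNC of that list was instead highest in F replicate 1, with 586, 195 and 401 FPKM in F replicates 1 to 3. The fibrillar matrix list was mixed. Of the 37 fibrillar matrix genes kept, 17 were lowest in F replicate 1 and 12 were highest there, against 2901 and 3459 of all 9401 genes, with a median deviation of -0.16 on the log2 scale. COL12A1, a fibril-associated collagen, was highest in replicate 1, with 821, 155 and 285 FPKM in F replicates 1 to 3. COL6A3, a chain of collagen VI, had 110, 799 and 1075 FPKM in F replicates 1 to 3. POSTN, a matrix protein of periosteum and ligament, had 146, 539 and 1599 FPKM. FMOD, a collagen-binding proteoglycan of tendon, had 2.79, 29.3 and 37.6 FPKM. For THBS4, a tendon matrix protein, the values were 0.32, 7.86 and 30.5 FPKM, and for TNMD, a tendon membrane protein, 0.14, 2.09 and 9.99 FPKM. In COL6A3, POSTN, FMOD, THBS4 and TNMD replicate 1 was the lowest and replicate 3 the highest. Of the 6 tendon and ligament genes kept, 4 had an SD of 1 or more in F, 2 in FSB and 4 in F_FSB. Among 37 fibrillar matrix genes, 8 did so in F, 1 in FSB and 10 in F_FSB, with medians of 0.60, 0.26 and 0.64. The abundant collagen COL1A1 was steady within media, with 3550 to 4511 FPKM in F and SDs of 0.16 to 0.21.

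Other genes were high in F replicate 1. TGFB2 (chr1:218518676-218617961), a TGF-β ligand, had 76.9, 6.40 and 4.05 FPKM in F replicates 1 to 3. CTGF, a matricellular protein induced by TGF-β, had 253, 40.8 and 55.9 FPKM. TPM1, an actin-binding tropomyosin, had 770, 272 and 187 FPKM. In each of these genes replicate 1 was well above the other 2 libraries, which lay closer to each other.

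HAPLN1, the link protein of cartilage proteoglycan, had 103, 4.36 and 5.97 FPKM in F. DKK1, a secreted WNT inhibitor, had 18.3, 0.27 and 1.06 FPKM. TFAP2B, a crest transcription factor, had 16.4, 1.25 and 1.86 FPKM. CDH6, a cadherin of early crest cells, had 51.6, 10.3 and 1.05 FPKM and was lowest in replicate 3. The crest list as a whole was not high in replicate 1. Of its 14 factors kept, 3 were highest and 6 lowest there, against 3459 and 2901 of all 9401 genes. In F replicate 3, 9 of the 14 were highest. Of the 21 TGF-β response genes kept, 15 were highest in F replicate 1, and their median deviation there was 0.46 on the log2 scale. Only 2 of them, TGFB2 and CTGF, had an SD of 1 or more in F. Of 14 perivascular and contractile genes, 9 were highest in replicate 1, against 3459 of all 9401 genes kept.

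F replicate 2 stood apart in fewer genes. CHRDL1, a secreted BMP antagonist, had 2.70, 73.2 and 5.86 FPKM in F replicates 1 to 3. HOXA3, the 1 gene kept of the HOX list and a marker of posterior position, had 6.57, 26.7 and 6.34 FPKM. COL11A1, a cartilage collagen chain, was low in replicate 2, with 105, 10.4 and 93.5 FPKM. RGS5, a pericyte-associated G protein regulator, was also low there, with 7.94, 0.91 and 20.6 FPKM. Of the 9 cartilage genes kept, 6 had an SD of 1 or more in F, 0 in FSB and 4 in F_FSB, and 6 were lowest in F replicate 2, against 3818 of all 9401 genes.

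Certain transcription factors and FGF response genes were highest in F replicate 3. The ectomesenchyme list as a whole was divided, with 10 of 22 factors highest in replicate 3 and 8 in replicate 1. MSX1 (chr4:4861392-4865663), a homeobox gene of facial mesenchyme induced by BMP, had 0.19, 2.18 and 12.2 FPKM in F. TBX3, a T-box factor of limb and face, had 4.72, 10.2 and 41.3 FPKM. MEOX1 and MEOX2, homeobox genes best known in somites, had 2.78, 11.3 and 43.2 FPKM and 3.51, 32.8 and 52.3 FPKM. Of 22 ectomesenchyme factors kept, 9 had an SD of 1 or more in F, 0 in FSB and 7 in F_FSB, with median SDs of 0.81, 0.16 and 0.50. The ERK target DUSP6 had 19.1, 18.9 and 86 FPKM, and the FGF feedback inhibitor SPRY4 had 15.3, 14.1 and 71.0 FPKM. Of 14 FGF and ERK response genes, 10 were highest in F replicate 3, against 3238 of all 9401 genes, and 4 had an SD of 1 or more in F.

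**Figure D4:**
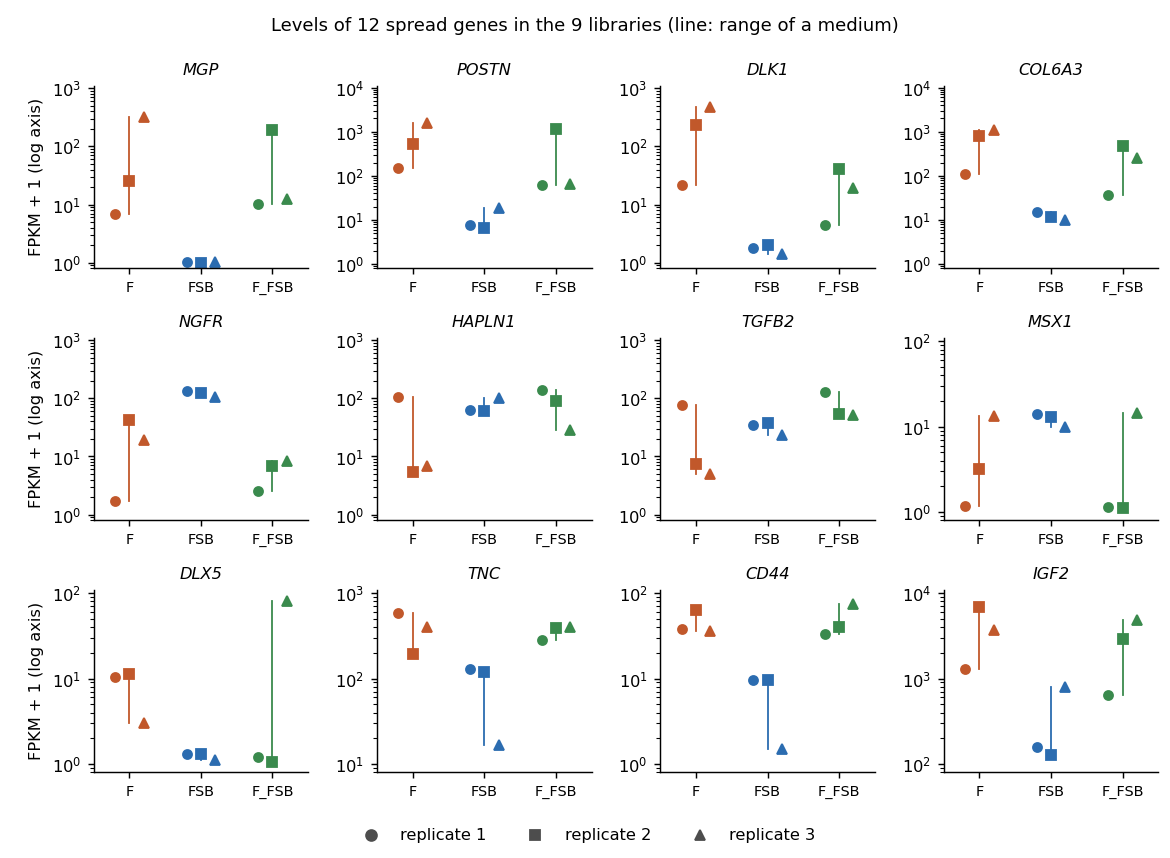
Levels of 12 genes as FPKM + 1 (log axis) in F, FSB and F_FSB; circles, squares and triangles are replicates 1, 2 and 3, and lines join the lowest to the highest library. MGP, POSTN, DLK1 and COL6A3 spread in F and F_FSB, DLX5 is high in F_FSB replicate 3 alone, and TNC and CD44 are low in FSB replicate 3.

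In F_FSB the protein-coding genes of high spread fell into sets led by different libraries. Without replicate 2, 234 genes of all types had an SD of 1 or more, 138 of them among the 279. Pseudogenes and other copies are part of these counts: replicate 2 stood apart in 132 of the 279, of which 60 were protein-coding. Several genes of widest spread were highest in replicate 2, though the fibrillar matrix list was not, with 14 of 37 highest there, 10 lowest and a median deviation of -0.01 on the log2 scale. OGN, a small proteoglycan of connective tissue, had 0.22, 49.3 and 3.70 FPKM in F_FSB replicates 1 to 3. POSTN had 61.9, 1146 and 63.7 FPKM, MGP had 9.04, 188 and 11.6 FPKM, and FMOD had 0.84, 39.3 and 4.50 FPKM. EDN3, a peptide that supports melanocyte and enteric precursors, had 6.73, 52.2 and 1.60 FPKM. These 5 genes were highest in the library in which pseudogenes were low. OGN and POSTN had in F a highest library of 41.5 and 1599 FPKM, replicate 3. The part of the pseudogene shift in these values was not tested. ACTA1, the skeletal muscle actin gene and a relative of other actins, had 9.88, 0.92 and 12 FPKM in F_FSB, low in the same library as the copies. PABPC3, a protein-coding retrocopy of PABPC1, had 90.9, 3.79 and 69.4 FPKM.

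Several homeobox genes were set apart by F_FSB replicate 3, with DLX5, MSX1 and MSX2 high there and SIX2 low. BARX1, also a homeobox gene, was set apart by that library as well. The ectomesenchyme list did not lean one way, with 7 of 22 factors highest and 9 lowest in F_FSB replicate 3. DLX5 (chr7:96649702-96654143), a homeobox factor of the lower jaw, had 0.21, 0.06 and 80.5 FPKM in F_FSB replicates 1 to 3. Its SD of 3.56 was the largest of any protein-coding gene in any medium. MSX1 had 0.15, 0.13 and 13.4 FPKM and MSX2 had 4.97, 5.18 and 35.7 FPKM. For DLX5, MSX1 and MSX2, replicates 1 and 2 were close to each other and replicate 3 stood alone.

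GPC3, a surface proteoglycan that restrains growth, had 8.25, 7.77 and 226 FPKM. CDKN1C, an imprinted inhibitor of the cell cycle, had 4.08, 5.80 and 38.5 FPKM. MMP1, an interstitial collagenase, had 0.53, 13.8 and 80.9 FPKM, with all 3 libraries far from one another. Other genes were low in replicate 3. SIX2, a homeobox gene of head mesenchyme, had 34.5, 46.2 and 5.38 FPKM. THY1, a stromal surface protein, had 30.9, 46.3 and 4.94 FPKM, and TFAP2B had 19.7, 20.4 and 1.87 FPKM. Of 24 proliferation genes, 23 were lowest in F_FSB replicate 3, against 4392 of all 9401 genes, with a median deviation of -0.29 on the log2 scale, and none had an SD of 1 or more.

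F and F_FSB had 71 of these genes in common, which is 38.6% of those in F and 25.4% of those in F_FSB, against 2.97% and 1.96% of all genes kept. F and FSB shared 11 genes, which is 35.5% of those in FSB and 5.98% of those in F. F_FSB and FSB shared 9, which is 29.0% of those in FSB and 3.23% of those in F_FSB. Genes of high spread in F had a median SD of 0.89 in F_FSB and 0.24 in FSB, where the medians over all genes were 0.16 and 0.11. Of the 184 genes in F, 39 had a mean under 1 FPKM in FSB, where an SD of 1 is hard to reach. MGP, with 0 to 0.04 FPKM in FSB, is such a gene. OGN was at 0 in all 3 FSB libraries. Only IGF2, EGR1 and the readthrough locus RPL17-C18ORF32 had an SD of 1 or more in all 3 media. This last locus overlaps RPL17 and C18orf32, so its reads are shared with theirs and its values are uncertain.

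Genes spread in both F and F_FSB often took the same side in their replicates 1. Of the 71, 61 deviated from the medium mean in the same direction in F replicate 1 and F_FSB replicate 1, against 57.1% of all genes kept. In protein-coding genes it was 59 of 65. COL6A3 was lowest in both, with 110 FPKM of up to 1075 in F and 35.7 FPKM of up to 464 in F_FSB, and DLK1 was lowest in both, with 21.1 and 3.48 FPKM. PRG4, the lubricant of joint surfaces, was also lowest in both, with 32.4, 163 and 161 FPKM in F and 0.76, 59.4 and 15.3 FPKM in F_FSB. Across all 9401 genes the correlation of deviations was r = 0.39 for this pair of libraries, 0.25 for F replicate 2 with F_FSB replicate 3, and 0.21 for F replicate 3 with F_FSB replicate 2. The other 6 pairings gave r from -0.26 to -0.005. Deviations within a medium sum to 0, so these values are not independent, and the pairing with the highest r was picked after they were seen. The labels do not tie replicate numbers between media.

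In FSB, most genes of high spread were set apart by replicate 3, and without that library 4 genes had an SD of 1 or more. These were LOC100505813, LOC100506583, LOC100652936 and RPL17-C18ORF32, none of them a named factor of the crest. TNC (chr9:117782805-117880486), a matrix glycoprotein of crest migration paths and tendon, had 129, 120 and 15.8 FPKM in FSB replicates 1 to 3. CD44, the hyaluronan receptor and a stromal surface marker, had 8.58, 8.66 and 0.49 FPKM. Both were low in replicate 3, while their levels in F ran from 195 to 586 and from 35.3 to 62.0 FPKM. MAB21L2, an eye and face gene, had 24.0, 20.5 and 1.47 FPKM. EBF3, a transcription factor of neurons and mesenchyme, had 23, 20.7 and 1.61 FPKM. MSX2 had 5.73, 5.42 and 0.38 FPKM, and KRT19, a keratin of simple epithelia, had 7.85, 9.41 and 0.33 FPKM.

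Fewer genes were high in FSB replicate 3. IGF2 (chr11:2150347-2170833), an imprinted growth factor gene, had 158, 127 and 804 FPKM. SEPP1, which encodes the selenium carrier selenoprotein P, had 6.65, 8.99 and 63.6 FPKM. BMF, a pro-apoptotic BCL2 family gene, had 9.60, 8.34 and 47.5 FPKM, and GREM1, a BMP antagonist, had 4.25, 4.36 and 21.0 FPKM. IGF2 varied in the other media as well, with 1303, 6816 and 3695 FPKM in F and 640, 2936 and 4855 FPKM in F_FSB. Its lowest library was replicate 1 in both of these. In FSB replicate 3, genes that respond to FGF and ERK signalling were mostly lowest, 12 of 14, against 3480 of all 9401 genes. ETV4, an ETS factor induced by FGF, had 28.8, 26.4 and 4.43 FPKM in FSB replicates 1 to 3. The immediate early gene EGR1 was instead highest in replicate 3, with 2.73, 2.53 and 18.1 FPKM.

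Several lists lay to one side in FSB replicate 3 while no member reached an SD of 1. All 17 cholesterol synthesis genes were lowest in this library, as were 22 of 24 proliferation genes and 13 of 15 hypoxia and glycolysis genes, against 3480 of all 9401 genes. Median deviations were -0.28, -0.32 and -0.32 on the log2 scale. Of 18 interferon and antigen presentation genes, 15 were highest in it, against 3846 of all 9401 genes. Members of a list are not independent, and these counts carry no test. Whether growth state has a part in the spread of the genes named above was not tested.

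**Figure D5:**
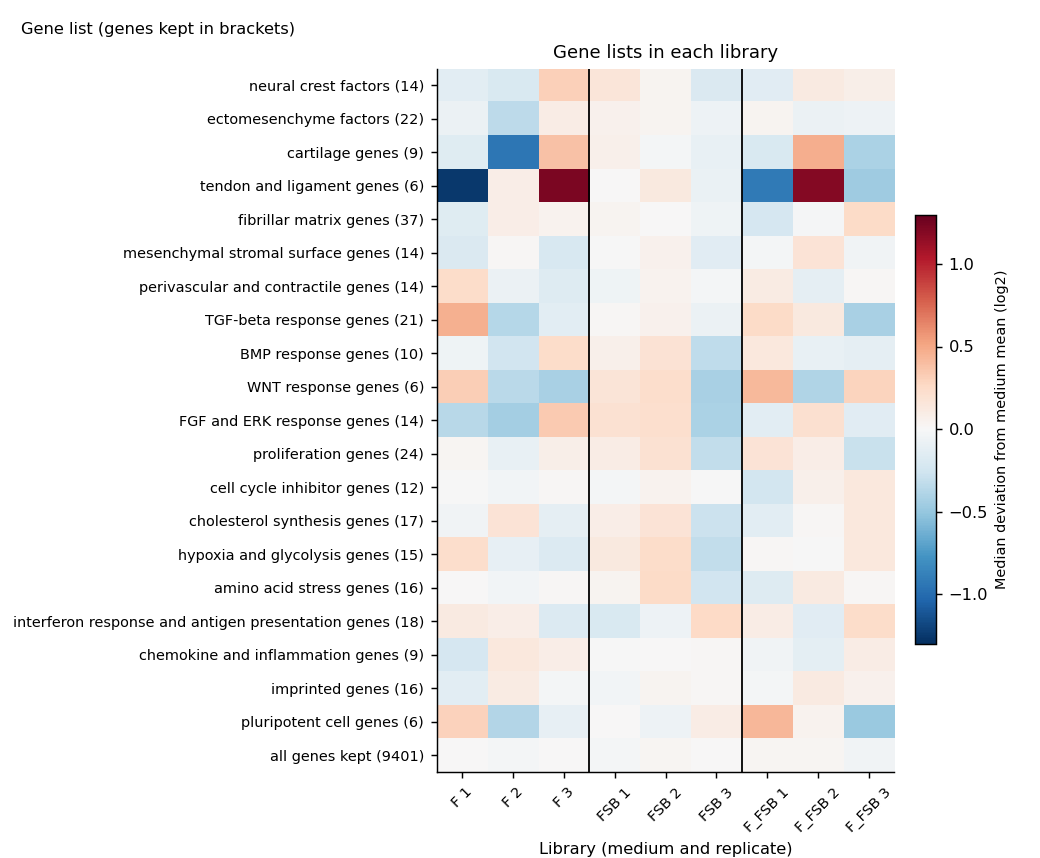
Median deviation from the medium mean, log2(FPKM + 1), of each gene list with 6 or more genes kept, in each of the 9 libraries (red above, blue below). Tendon and ligament genes run from -1.25 in F replicate 1 to 1.22 in F replicate 3, while all genes kept stay within 0.05 of 0.

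Some lists held no gene of high spread, though most of their median SDs were above those of all genes. No gene of the proliferation (24 kept), cholesterol synthesis (17), hypoxia and glycolysis (15), amino acid stress (16) or interferon and antigen presentation (18) lists had an SD of 1 or more in any medium. Their median SDs ran from 0.18 to 0.28 in F, 0.24 to 0.29 in FSB and 0.16 to 0.46 in F_FSB, against 0.14, 0.11 and 0.16 over all genes. PSMB8, an immunoproteasome subunit, came close with 0.996 in FSB. Of 14 crest factors kept, 3 had an SD of 1 or more in F, 1 in FSB and 3 in F_FSB. Among 10 BMP response genes these were 3, 2 and 3, and of 6 WNT response genes 2, 0 and 3. In the imprinted list of 16, the spread lay in IGF2, DLK1 and CDKN1C. MEST and PEG10 had SDs of 0.89 and 0.96 in F.

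Few genes of the lists of other cell types were kept, and several defining markers were at or near 0, though other members were well expressed. PTPRC of blood cells reached 0.07 FPKM at most, CDH1 of epithelia 0.04 and POU4F1 of sensory neurons 0.02, and the mesoderm factor T was listed at 0 in all 9 libraries. NANOG of pluripotent cells had at most 0.25 FPKM and SOX17 of endoderm at most 0.19. By contrast, over the 9 libraries KRT8 and KRT18 of the epithelial list ran from 13.6 to 117 and from 21.4 to 87.8 FPKM. TUBB3 of the peripheral neuron list ran from 53.2 to 135 FPKM. Summed levels of the pluripotent list were 6.50 to 19.7 FPKM in F, 179 to 187 in FSB and 8.54 to 19 in F_FSB. LIN28B made up part of that sum and had an SD of 1.12 in F, with 4.30, 0.52 and 0.29 FPKM. In FSB, LIN28B had 62.4, 67.7 and 51.4 FPKM and SALL4 had 16.2, 15.0 and 17.0 FPKM. The highest single value of the pluripotent list was 85.4 FPKM, in an FSB library and in a gene other than these. The peripheral neuron list had 3 of 4 genes kept with an SD of 1 or more in F, namely NEFM, SCG2 and GAP43, and its summed level was 85.3 to 170 FPKM in F. The part of such cells in the spread was not tested.

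Mean levels between media were compared with limma on all genes kept. For FSB minus F, 47% of genes passed an adjusted p of 0.05, 3098 (33%) higher and 1320 (14%) lower in FSB. For F_FSB minus FSB it was also 47%, 1394 (14.8%) higher and 3029 (32.2%) lower in F_FSB. The split depended on scaling: the median gene was 0.16 higher in FSB than in F on the log2 scale, and after scaling by median ratios the counts were 1904 higher and 1990 lower for FSB minus F and 2040 higher and 2008 lower for F_FSB minus FSB. Of the 184 genes of high spread in F, 70 passed for FSB minus F, 24 higher and 46 lower, although their median absolute difference was 1.46 against 0.34 for all genes. The spread enters the denominator of this test, so a smaller share is built in. For F_FSB minus F, 1 gene passed (0.0106%), GAS1, a surface protein of hedgehog signalling, and none of the genes of high spread did. GAS1 had 47.2, 73.1 and 68.6 FPKM in F and 16.8, 17.6 and 16.7 FPKM in F_FSB and was named after its values were seen. Its log2 change was -1.80 ± 0.15 (SE, limma adjusted p = 0.017). Without F replicate 1, 45 genes passed, without F_FSB replicate 3, 4 did, and none did with any 1 of the other libraries left out. At an unadjusted p under 0.05, 861 genes differed in that comparison.

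Several spread genes still separated the media. COL6A3 was lower in FSB than in F by a log2 change of -5.24 ± 1.06 (SE, limma adjusted p = 0.0049), with 8.93 to 14 FPKM in FSB below every library of F. POSTN differed by -5.68 ± 1.23 (limma adjusted p = 0.0067), and CD44 by -3.10 ± 0.69 (limma adjusted p = 0.0076). For NGFR the change was 3.44 ± 1.04 (limma adjusted p = 0.026). For others the spread was too wide for a call: TGFB2 differed by 1.14 ± 0.92 (limma adjusted p = 0.34), MSX1 by 1.73 ± 1.11 (limma adjusted p = 0.23) and DLX5 by -2.51 ± 1.5 (limma adjusted p = 0.20). For TGFB2, 1 library of F lay above all of FSB and the other 2 below. For MSX1, F overlapped FSB. All F libraries of DLX5 lay above FSB, with F_FSB ranging from below to above both.

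The threshold of 1 cuts a continuous range. In F, EDN3 and KCNE4 lay just above it with an SD of 1.01 each, and DPYSL4 and ADAM33 just below with 0.999 and 0.998. In FSB, VEGFC and ENOX1 were just above with 1.01 and 1.02, and A2M and PSMB8 just below with 0.998 and 0.996. In F_FSB, VCAN and NET1 were just above with 1.00 each, and DPYSL3 and SALL4 just below with 0.999 each. VCAN, a large matrix proteoglycan, had 134, 191 and 49.1 FPKM in F_FSB, and DPYSL3, a cytoskeletal regulator of neurites, had 24.2, 13.6 and 56.7 FPKM. Genes just above and just below the threshold thus differed little in SD. By chromosome, the median deviation of each library stayed between -0.07 and 0.06 of its overall median on the log2 scale, and genes of high spread lay on many chromosomes, with highest shares of 4.09% in F and 6.69% in F_FSB among chromosomes with 100 or more genes kept.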

How the data were processed

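RNA from 9 libraries, 3 per medium, was sequenced after strand-specific library preparation, per the labels' protocols. The authors deposited 1 table of gene-level FPKM values per library, with a 95% interval and a status for each locus, per the file headers. Cufflinks 2.1.1, TopHat2 2.0.12 and the build GRCh37 are listed in the submitters' processing notes. The strand setting of the quantification was not given in the sources used, so genes that overlap others or have antisense partners are uncertain. The tables hold no read counts and depth is unknown.

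Of 25593 loci, 95 with a status other than OK, 1746 with small RNA symbols and 14351 under the minimum were left out. SDs were taken on log2(FPKM + 1) with a pseudocount of 1, which compresses differences of low genes. Library deviations were compared with exact permutation tests (scipy 1.17.1). Means were compared with limma 3.58.1 (R 4.3.3, mean-variance trend, all 9 libraries, Benjamini-Hochberg adjustment over all genes kept). The scripts were tested on simulated data. Locus types came from RefSeq names, and copies were found with blastn 2.17.0 against GENCODE transcripts lifted to GRCh37. Python 3.11.15 with pandas 2.3.3 and numpy 2.4.6 was used.

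The members and gene lists were chosen with earlier results of these data known. Named genes were the 12 of largest SD per medium, those spread in all media, the 8 most spread in both F and F_FSB, up to 5 per list, the nearest 2 on each side of the threshold, and SOX9, NGFR and NT5E; ribosomal, LOC, small RNA and repeated symbols were left out of this rule. Markers at or near 0, the copies with their parents, COL12A1, BARX1 and the LOC genes left without FSB replicate 3 were named outside it, after their values were seen. Alternatives covered the pseudocount, the filter, scaling, a replicate block, leaving out each library and, added after seeing the data, protein-coding genes only.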

Additional observations from a re-analysis of the deposited data

How the results depend on the processing

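FSB had fewer genes with an SD of 1 or more than F or F_FSB under each pseudocount, filter, scaling and left-out library tried, with the numbers depending on the pseudocount and filter. With a pseudocount of 0.1 FPKM the count in FSB was 62. With one of 5 FPKM the counts were 70 in F, 13 in FSB and 140 in F_FSB. With a minimum of 1 FPKM FSB had 51, and with no filter the counts were 299, 63 and 495. Leaving out 1 library at a time gave 134 to 229 in F, 4 to 54 in FSB (4 without FSB replicate 3) and 220 to 319 in F_FSB. With 1 library left out, genes called by limma ranged from 2841 to 4564 for FSB minus F, 3011 to 4340 for F_FSB minus FSB and 0 to 45 for F_FSB minus F. For this last comparison, 2 genes were called with a pseudocount of 5 FPKM and 2 with no filter. Deviations of same-numbered libraries of F and F_FSB correlated at 0.39, -0.07 and -0.005. Those of FSB and F_FSB, from which F_FSB was split, correlated at -0.014, -0.034 and -0.050. Such correlations cannot show whether the replicate numbers pair cultures, so the main fit used no block and any pairing is unknown. With the replicate number as a block the counts were 157 in F, 117 in FSB and 212 in F_FSB, and limma called 0 genes for F_FSB minus F; removing number means moves deviations of F and F_FSB into FSB by construction. The mean library deviation kept its order under each alternative, but the F_FSB minus F difference of 0.072 was 0.025 without F_FSB replicate 2 and 0.019 in protein-coding genes.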

Other observations

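Small RNA loci were left out of the genes above. Of 112 that met the same FPKM minimum, 67 had an SD of 1 or more in F, 62 in FSB and 69 in F_FSB. The share was thus high in all 3 media, including FSB, where 31 of the other 9401 genes reached that spread.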
